A study of Danio rerio with 5 samples.

Results

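A cell that enters division builds a set of proteins that most resting cells lack. CDK1 with its B-type cyclins drives the entry into mitosis, condensins and topoisomerase II compact the chromosomes, kinesins and their partners build the spindle, kinetochore proteins tie the chromosomes to it, and the checkpoint kinases hold separase back until every chromosome is attached. The transcripts of these genes rise together in G2 and fall after division, so that their summed level in a cell is a common readout of cycling. In the zebrafish embryo both the red cell lineage and the hematopoietic stem and progenitor cells (HSPCs) of the caudal hematopoietic tissue divide.

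The genes described here are 44 named mitosis and G2 genes. They were found by symbol in the 5 plate tables, with letter case ignored and the paralog endings a and b allowed, and 41 of the 44 symbols gave 43 rows of the 23628 gene IDs. The symbols bub1b and birc5 each matched a pair of rows (bub1ba and bub1bb, BIRC5 and birc5b), reads of such paralogs may be shared between the rows, and kif4 matched as KIF4A. No row was found under cdc20, ube2c or incenp, which are not analysed here. The symbols come from a name table that writes many zebrafish genes in human style.

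Single live mCherry+ cells of the zebrafish line runx1+23:mCherry were sorted at 3 dpf into 5 plates of 384 wells and sequenced by SORT-seq, which tags each captured transcript at its 3′ end with a unique molecular identifier (UMI). The transgene puts mCherry under a Runx1 enhancer that marks HSPCs, and the labels call all cells HSPCs. The embryos carried the standard control morpholino (std, wells 1 to 188 of every plate, 940 in all) or the irf8 morpholino, which blocks macrophage formation (irf8, wells 189 to 384, 980 in all), so that morpholino and position on the plate cannot be told apart. The question put to these data was how cells of embryos with and without macrophages differ in their transcriptome. The replicate was the plate (n = 5). The labels do not tie a plate to a clutch or a sort of its own, so the p-values measure the spread between plates, which may be technical. Kept wells summed to between 91151 and 2078384 transcripts per plate and morpholino.

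Wells with at least 1000 transcripts were kept, 467 std and 466 irf8. They were sorted into 3 kinds. Globin-rich wells had at least 10% of their UMIs on 12 globin rows (570 wells, 61.1%), MYB-positive wells had less globin and at least 1 UMI of MYB, a transcription factor of blood stem cells (91 wells, 9.75%), and the rest were called other (272 wells, 29.2%). Of the kept wells 44 lay between 5 and 15% globin. The globin-rich wells carried the erythroid genes as well: 9 of 9 matched erythroid markers were detected, at 1.79 to 2.98% of UMIs per plate and morpholino against 0.104 to 0.172% in MYB-positive wells. A list of 9 stem and progenitor symbols (10 rows, MYB included) held 0.339 to 0.531% of UMIs in MYB-positive wells and 0.0732 to 0.171% in globin-rich wells. MYB-positive wells were not only of that kind. The 1 matched neutrophil marker, lyz, held 0.00248 to 2.36% of their UMIs per plate and morpholino, against 0.00542 to 0.0106% in globin-rich wells. The label HSPC went against the globin content of most wells, and the wells are called here by the genes that define their kind. Plate 3 had no globin-rich well and plate 5 had 2, both std, so means over plates and tests of globin-rich wells rest on plates 1, 2 and 4. Counts, medians and shares pooled over globin-rich wells include the 2 wells of plate 5. MYB-positive wells numbered 33, 27 and 23 on these plates and 4 on each of the others. Sums of fewer than 5 wells were left out. The median well held 4847.5 UMIs among globin-rich, 12031 among MYB-positive and 5406.5 among other wells. No pair of plates was a repeat of the same library (correlations of log2 levels across genes 0.871 to 0.946). The irf8 transcript gave 4 UMIs in 3 std wells and 12 UMIs in 7 irf8 wells, and such counts cannot show whether the morpholino worked.

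The 43 rows gave 17512 UMIs in the kept wells, 0.195% of all, and 676 of the 933 kept wells held at least 1. Per UMI, MYB-positive wells carried the most on average and on plates 1 and 4, while on plate 2 globin-rich wells stood slightly above them. The genes took 0.292, 0.344 and 0.391% of the UMIs of MYB-positive wells on plates 1, 2 and 4 (mean 0.342% ± 0.0497, SD, n = 3). In globin-rich wells of the same plates they took 0.157, 0.347 and 0.162% (0.222% ± 0.108, SD, n = 3). In other wells they took 0.106, 0.141, 0.126, 0.06 and 0.0791% on plates 1 to 5 (0.102% ± 0.033, SD, n = 5). MYB-positive and other wells did not overlap, whereas plate 2 of the globin-rich wells reached the MYB-positive range. The median globin share of globin-rich wells was 48.9% on plate 2. With globin left out of the total, the share in globin-rich wells was 0.364% ± 0.195 (SD, n = 3), at the level of the MYB-positive wells (0.346% ± 0.0491, SD, n = 3).

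The same genes were spread differently over the wells. Each well was thinned to 1000 UMIs, so that depth was the same in all. At least 2 UMIs of the genes were then found in 45.1% ± 9.7 of MYB-positive wells (SD, n = 3), 26.6% ± 5.71 of other wells (SD, n = 5) and 16.1% ± 3.25 of globin-rich wells (SD, n = 3). Differentiated muscle does not divide, and other wells led by muscle genes gave 10% (6 of 60 wells, exact 95% interval 3.76 to 20.5%, counting error only). Their median depth before thinning was 2322.5 UMIs, and whether free RNA gave their UMIs was not tested. Globin-rich wells of std embryos gave 4.9% ± 1.73 (SD, n = 3), at or below the level of the muscle wells, with a median of 51.8% of their UMIs on globin. By share of UMIs the order was the reverse, 0.0505% in these std wells (mean, n = 3) and 0.0344% in the pooled muscle wells. In globin-rich wells a small group carried most of the signal. Wells with 5 or more UMIs after thinning numbered 57 of 570, held 76.7% of all mitosis and G2 UMIs of the class and had a median of 30 of the 43 rows detected. The 382 globin-rich wells with none after thinning had a median of 1 row detected. As the wells were picked by these same UMIs, their share and rows detected are high in part by the choice. Rows were counted before thinning, when the 57 wells held a median of 8469 UMIs and the 382 a median of 4601.5. In MYB-positive wells 23 of 91 reached 5 UMIs and held 50.8%, and in other wells 23 of 272 held 43.7%. In each class, then, a minority of the wells held a large part of the signal.

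Among other wells, those led by stem and progenitor genes without a UMI of MYB had the highest share, 0.39% of UMIs, and 18 of 31 reached 2 UMIs after thinning (58.1%, exact 95% interval 39.1 to 75.5%). Thrombocyte-led wells held 0.259% (5 wells), neutrophil-led wells 0.13% (5 wells) and erythroid-led wells 0.107% (8 wells). Wells in which no marker list reached 0.5% of UMIs held 0.129% (112 wells). Neural-led wells held 0.0939% (4 wells), cartilage-led wells 0.0925% (13 wells), epithelial wells 0.0606% (31 wells), lens-led wells 0.0515% (3 wells) and muscle wells 0.0344% (60 wells). Wells were assigned to these lists by their own transcripts, and the values describe pooled wells with no replicate error.

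The leading genes differed between the kinds of well. Values are counts after TMM normalisation, scaled as CPM, and since reads come from the 3′ end they carry no gene length. The proliferation marker mki67 (ENSDARG00000091150), which coats mitotic chromosomes, had the highest mean in all 3 kinds. It had 284, 311 and 348 CPM in MYB-positive wells of plates 1, 2 and 4, 174, 298 and 144 in globin-rich wells, and 89.7, 105, 95.5, 48.6 and 80.6 in other wells of plates 1 to 5. In MYB-positive wells it was followed by plk1, a kinase of mitotic entry (158 CPM ± 60.3, SD, n = 3), TOP2A, the topoisomerase that untangles chromosomes (153 ± 38.9), TPX2, a spindle assembly factor (138 ± 43.4), and CDK1 (112 ± 50.2). In globin-rich wells the next were kif11, the kinesin that pushes spindle poles apart (193 ± 145), plk1 (180 ± 131), CDK1 (177 ± 131) and nuf2, a subunit of the Ndc80 kinetochore complex (174 ± 114, each SD, n = 3). The same 5 genes led in irf8 globin-rich wells, with kif11 (245 CPM) before mki67 (239). In std globin-rich wells mki67 (94.5 CPM) was followed by SMC4 (56.8), TOP2A (53.5), tacc3 (43.1) and NUSAP1 (42.8), and kif11 ranked 14, plk1 13, CDK1 8 and nuf2 6 of the 35 genes tested by morpholino. In other wells SMC4 (45.5 ± 10.4), kifc1 (39.1 ± 19.2), SMC2 (36.8 ± 14.6) and CDK1 (36.2 ± 13.1, each SD, n = 5) came next, of which SMC2 and SMC4 are the core of condensin and kifc1 is a minus-end kinesin. In MYB-positive wells the lowest plate of mki67 lay above the highest of plk1. No other neighbours in the order of means were apart in any of the 3 classes. In globin-rich wells of plate 2, kif11 (359 CPM), plk1 (330), CDK1 (327) and nuf2 (306) all passed mki67 (298).

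**Figure D1:**
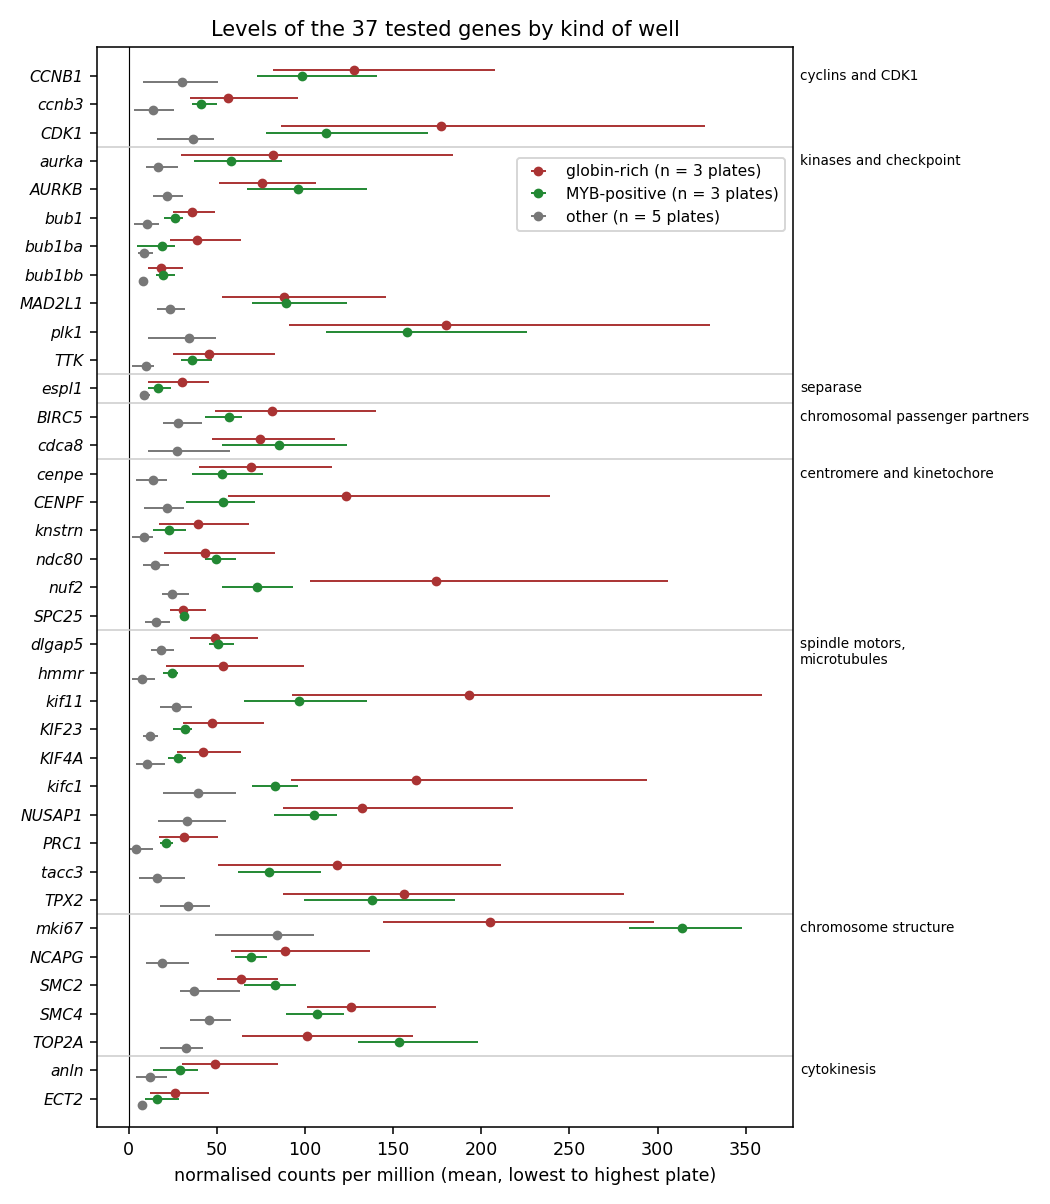
Level of each of the 37 tested mitosis and G2 genes in globin-rich, MYB-positive and other wells, in normalised CPM on a linear axis and grouped by role. Points are means over plates and lines run from the lowest to the highest plate; mki67 leads in each kind of well (means 205, 314 and 83.9), and with the morpholinos pooled other wells sit lowest for every gene. A gene could pass the low-count filter without its sums of other wells.

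By role, spindle motors and microtubule proteins (11 rows) held 29.9% of the mitosis and G2 UMIs in globin-rich wells, 25.7% in MYB-positive and 24.6% in other wells. Chromosome structure genes (5 rows) held 18.4%, 26.5% and 26.2%, and centromere and kinetochore genes (7 rows) held 15.3%, 10.5% and 12.1%. The 8 kinase and checkpoint rows (16.9%, 18.5% and 16.1%) and the 5 rows of cyclins and CDK1 (11.3%, 10.3% and 10.7%) took nearly the same part in all 3. These shares pool the wells of each class. Paralogs were uneven: BIRC5, the survivin of the chromosomal passenger complex, gave 492 UMIs and birc5b gave 2, while bub1ba and bub1bb, the pair related to the checkpoint protein BubR1, gave 173 and 131. CCNB1 (694 UMIs) stood far above ccnb3 (282), CCNB2 (59) and CCNA2 (14). The kinesin kif20a gave 8 UMIs, RACGAP1, a regulator of the cleavage furrow, 43, and oip5, a centromere assembly factor, 102. These 6 rows (birc5b, CCNB2, CCNA2, kif20a, RACGAP1 and oip5) were too low for the tests, which left 37 of 43 in the comparison of classes.

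MYB-positive and globin-rich wells were compared over the sums per plate with edgeR (quasi-likelihood, plates blocked), and p-values were adjusted over 8748 genes by the Benjamini-Hochberg method, with calls at 0.05. A single member passed. nuf2 (ENSDARG00000034624) had 103, 306 and 114 CPM in globin-rich wells of plates 1, 2 and 4 and 52.7, 93.4 and 71.8 in MYB-positive wells, lower in MYB-positive wells on 3 of 3 plates with no overlap, where 21.4% of all genes lay below without overlap (log2 fold change -1.13, standard error 0.29, edgeR adjusted p = 0.0253). Among all genes 9.05% were called higher and 10.8% lower in MYB-positive wells, so that calls were rarer among the 37 than in the background. Their median log2 fold change was -0.27, beside -0.15 for all genes, with 26 of 37 below 0. Without plate 2 the median was 0.33 with 29 of 37 above 0, and from 5% globin it was 0.07. By share of UMIs, MYB-positive wells had the higher mean, 0.342% against 0.222% in globin-rich wells. The 2 measures are scaled differently. TMM factors were 0.579 to 0.718 for globin-rich sums and 1.16 to 1.37 for MYB-positive sums, and a lower factor raises the CPM of a sum. The 2 members with the next smallest p pointed opposite ways: mki67, higher in MYB-positive wells on 3 of 3 plates, stood at 0.70 (standard error 0.32, edgeR adjusted p = 0.158), and CENPF, a large kinetochore protein, -0.95 (standard error 0.46, edgeR adjusted p = 0.187). A miss of the threshold does not show that the levels were alike. The nuf2 call was lost with DESeq2, without the block, without plate 1 or plate 2, and on sums per plate, class and morpholino. It was also lost without a low-count filter, where oip5 was called (-1.95), and from 5% globin, where TOP2A was called higher in MYB-positive wells (1.04). When MYB was read from wells thinned to 1000 UMIs, an alternative chosen after seeing the data, 9 of 38 members were called lower in MYB-positive wells. The morpholinos differed here as well, in fits to each alone that were also chosen after seeing the data. In std wells all 22 members tested were higher in MYB-positive wells, with a median of 1.46, and 9 were called (11.5% of all genes). mki67 was among them (1.41, standard error 0.46, edgeR adjusted p = 0.0448), while nuf2 stood at 0.38 (standard error 0.46, edgeR adjusted p = 0.548). The low-count filter was rerun on std wells alone and left 22 of the 37 members. A member could pass it on MYB-positive or other wells alone, so the direction of those left gives no independent support. In irf8 wells 0 of 37 were called by edgeR (4.91% of all genes called lower), with a median of -0.36. Of the 37, 2 had an unadjusted p under 0.05, as 1477 of all 6677 genes had.

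DNA replication genes behaved otherwise in that comparison with the morpholinos pooled. Of a list of 44 rows for replication licensing, polymerases and nucleotide supply, 33 were tested, 8 were called higher in MYB-positive wells and 0 lower (edgeR), and their median was 0.91. They included the helicase subunits MCM6 (2.12, standard error 0.34, edgeR adjusted p = 0.0036), MCM4 (1.68, standard error 0.28, edgeR adjusted p = 0.0045) and MCM5, the sliding clamp PCNA, and the ligase LIG1. Of 18 rows of G2/M regulators 11 were tested and 3 were called, all lower: the phosphatase cdc25b, which activates CDK1 (-1.47, edgeR adjusted p = 0.0179), mastl, the Greatwall kinase (-2.38, edgeR adjusted p = 0.007), and fbxo5, the Emi1 inhibitor of the anaphase-promoting complex (-1.06, edgeR adjusted p = 0.0445). Of 13 tested genes in a list of other mitosis genes none was called. Replication genes took 0.319% ± 0.0477 of UMIs in MYB-positive wells (SD, n = 3) and 0.0879% ± 0.00847 in globin-rich wells (SD, n = 3). With the morpholinos pooled this gap was wider than that of the mitosis and G2 genes. In std wells the gaps were closer, 0.31 and 0.0455% for replication genes and 0.293 and 0.0505% for mitosis and G2 genes. In irf8 wells the values were 0.318 and 0.108% for replication genes and 0.439 and 0.298% for mitosis and G2 genes (means, n = 3 each).

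With the morpholinos pooled, other wells stood below both. Against globin-rich wells, 28 of 37 members were called lower and 0 higher, beside 7.96% of all genes called lower and 4.65% higher. The median log2 fold change was -1.92 for the members and 0.11 for all genes, and all 37 were lower on each of plates 1, 2 and 4, where 24.3% of all genes were. For 33 of the 37 the plates did not overlap, and 18.2% of all genes lay below in that way. The low-count filter was run over the sums of all classes together, and a member could pass it on globin-rich or MYB-positive sums alone. These directions and the lack of overlap, also in irf8 wells alone, therefore give no independent support. The largest fold was that of kif11 (ENSDARG00000010948), with 127, 359 and 92.8 CPM in globin-rich wells of plates 1, 2 and 4 and 17.5, 35, 36, 23.6 and 21.6 CPM in other wells of plates 1 to 5. No other-well plate reached the lowest globin-rich plate (log2 fold change -2.82, standard error 0.46, edgeR adjusted p = 0.005). nuf2 had the smallest p (-2.71, standard error 0.31, edgeR adjusted p = 0.00107), and hmmr, a spindle-associated hyaluronan receptor, was at -2.78 (standard error 0.56, edgeR adjusted p = 0.0128). All 10 tested spindle motors and microtubule proteins were called, among them NUSAP1 (-2.18), dlgap5 (-1.72) and tacc3 (-2.68), proteins that bundle or stabilise spindle microtubules. Of 6 tested centromere and kinetochore genes 4 were called, including CENPF (-2.64) and the kinesin cenpe (-2.22). Of 5 chromosome structure genes 4 were called, including the condensin subunit NCAPG (-1.86), and of 8 kinase and checkpoint genes 7, including TTK, the Mps1 kinase of the spindle checkpoint (-1.83). SMC2 was closest, at -0.67 (standard error 0.29, edgeR adjusted p = 0.183). The count rested on plates 1 and 2: it was 7 without plate 1 and 1, nuf2, without plate 2, and 5 when MYB was read after thinning. It also rested on the irf8 wells. In irf8 wells alone, an alternative chosen after seeing the data, 24 of 37 members were called lower (4.18% of all genes) with a median of -2.47. In std wells alone 0 of 22 tested were called by edgeR (8.31% of all genes called lower). The median was 0.36, with 17 of the 22 above 0. An unadjusted p under 0.05 was found for 0 of them and for 1108 of all 4488 genes. As above, the low-count filter rerun on std wells limits what these directions show. There kif11 stood at -0.48 (standard error 0.83, edgeR adjusted p = 0.778) and nuf2 at -0.17 (standard error 0.48, edgeR adjusted p = 0.865).

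MYB-positive wells against other wells gave 13 of 37 members called higher and 0 lower, beside 2.56% and 3.92% of all genes. The median was 1.62, and -0.16 for all genes. For 33 members MYB-positive wells lay above other wells of the same 3 plates without overlap, which 17.4% of all genes did. A member could pass the low-count filter without its sums of other wells, here and within each morpholino. The directions and the lack of overlap therefore give no independent support here either. mki67 (2.02, standard error 0.33, edgeR adjusted p = 0.0181), TOP2A (2.09, standard error 0.37, edgeR adjusted p = 0.0226) and dlgap5 (1.83, standard error 0.33, edgeR adjusted p = 0.0227) had the smallest p. The other 10 called were NUSAP1, nuf2, NCAPG, tacc3, AURKB, the Aurora kinase of the passenger complex, plk1 (2.56), TPX2, kif11, TTK and cenpe. The count was 0 without plate 1, 2 or 4, and 0 when MYB was read after thinning, with the median then at -0.15, 23 of 38 members below 0, NUSAP1 at -0.50 and NCAPG at -0.08. It was also 0 within each morpholino alone, though every member tested stayed positive. In std wells this held for 22 of 22, with a median of 1.25, and 10 had an unadjusted p under 0.05. Of all 4488 genes 1655 had such a p, in either direction, and edgeR called 5.48% higher. The limit of the rerun filter given above holds for these std wells too. In irf8 wells 37 of 37 stayed positive, with a median of 1.91, and 30 had an unadjusted p under 0.05. Of all 6677 genes 1056 had such a p, in either direction, and edgeR called 0% higher. The 3 comparisons share their sums. MYB-positive wells had the highest median depth (12031 UMIs), and the part of depth in these differences was not tested beyond the thinning given above.

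The morpholinos differed most in globin-rich wells. There the genes took 0.223, 0.458 and 0.214% of UMIs in irf8 wells of plates 1, 2 and 4 (0.298% ± 0.138, SD, n = 3) and 0.0729, 0.0314 and 0.0472% in std wells (0.0505% ± 0.021, SD, n = 3). Every irf8 sum was above every std sum. With globin left out of the total the shares were 0.472% ± 0.233 and 0.0872% ± 0.031 (SD, n = 3 each). The std globin-rich wells held less of these transcripts per UMI than std other wells of the same plates (0.131, 0.164 and 0.108%). With globin left out they held 0.122, 0.0623 and 0.0774%, against 0.133, 0.168 and 0.109% in std other wells, still lower on 3 of 3 plates. The irf8 globin-rich wells overlapped the MYB-positive range.

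**Figure D2:**
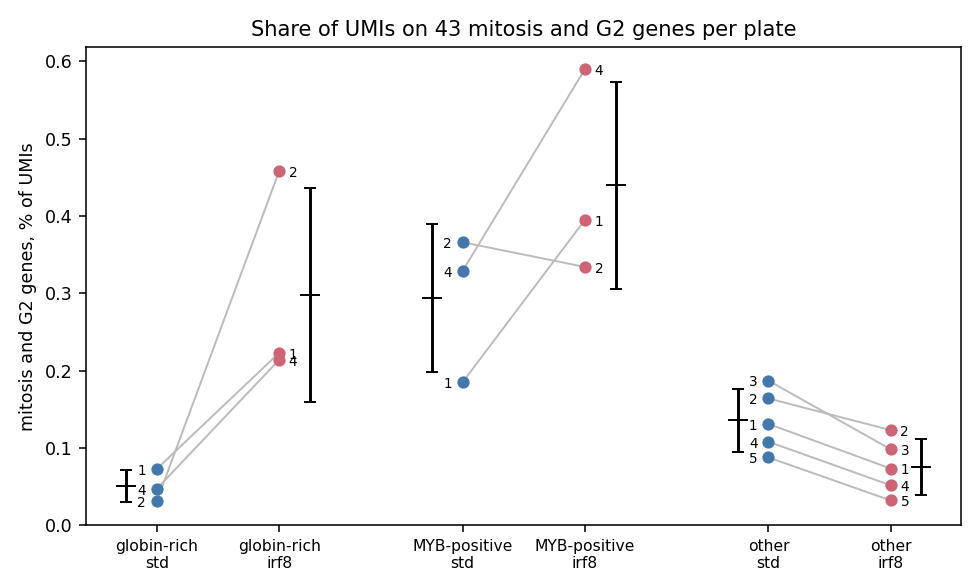
Share of UMIs (percent) on the 43 mitosis and G2 rows in each plate, by kind of well and morpholino; numbers are plates, grey lines join std and irf8 of the same plate, and black bars are mean ± SD over plates. In globin-rich wells irf8 lies above std on 3 of 3 plates (0.298% against 0.0505%), and in other wells below std on 5 of 5 (0.0757% against 0.135%).

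Gene by gene, 35 members were tested within classes, and in globin-rich wells all 35 had a positive irf8 to std log2 fold change, with a median of 2.31 beside 0.02 for all 6903 genes. The low-count filter was run over the sums of all classes and morpholinos together, and a member could pass it on irf8 sums alone. The direction of the members left, and the lack of overlap given below, therefore give no independent support. By edgeR, 3 members were called higher and 0 lower, beside 0.13% and 0.116% of all genes. nuf2 had 28.6, 32.8 and 51.5 CPM in std and 155, 364 and 141 in irf8 globin-rich wells of plates 1, 2 and 4 (2.39, standard error 0.44, edgeR adjusted p = 0.0284). BIRC5 (ENSDARG00000075621) had 9.52, 16.4 and 12.9 CPM in std and 85.9, 166 and 64.1 in irf8 (2.93, standard error 0.57, edgeR adjusted p = 0.0353). CDK1 (ENSDARG00000087554) had 34.9, 32.8 and 32.2 CPM in std and 124, 390 and 153 in irf8 (2.62, standard error 0.52, edgeR adjusted p = 0.0399). For all 3 genes the lowest irf8 plate exceeded the highest std plate.

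The other 32 members did not pass, though 33 of the 35 had an unadjusted p under 0.05, as 667 of all 6903 genes had. For 33 the groups did not overlap, where 10.8% of all genes had irf8 above std in every pairing. knstrn, a kinetochore and spindle protein, had 6.35, 0 and 0 CPM in std and 25.1, 83.2 and 45.1 in irf8 (3.92, standard error 0.81, edgeR adjusted p = 0.0512). kif11 had 66.7, 0 and 16.1 CPM in std and 172, 438 and 125 in irf8 (2.76, standard error 0.79, edgeR adjusted p = 0.155). NCAPG had 44.4, 16.4 and 6.43 CPM in std and 69.1, 162 and 97.3 in irf8 (2.09, standard error 0.56, edgeR adjusted p = 0.119). The lowest values were those of TOP2A (0.96), the only member lower in irf8 on a plate, mki67 (1.24), espl1, the separase (1.37), and SMC4 (1.38). The 5 chromosome structure genes had a median of 1.38 and ran from 0.96 to 2.09. In std globin-rich wells chromosome structure genes held 30% of the mitosis and G2 UMIs, against 17.3% in irf8. CCNB2 gave 0 UMIs in std globin-rich wells, which allows up to 0.000239% of UMIs, and 22 in irf8. The 3 calls were lost without plate 1, 2 or 4 and when globin-rich wells were taken from 5% globin, and 19 members were called from 20% globin and 14 by DESeq2. Without plate 2, where irf8 was highest, all 34 members tested stayed positive, with a median of 1.81.

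**Figure D3:**
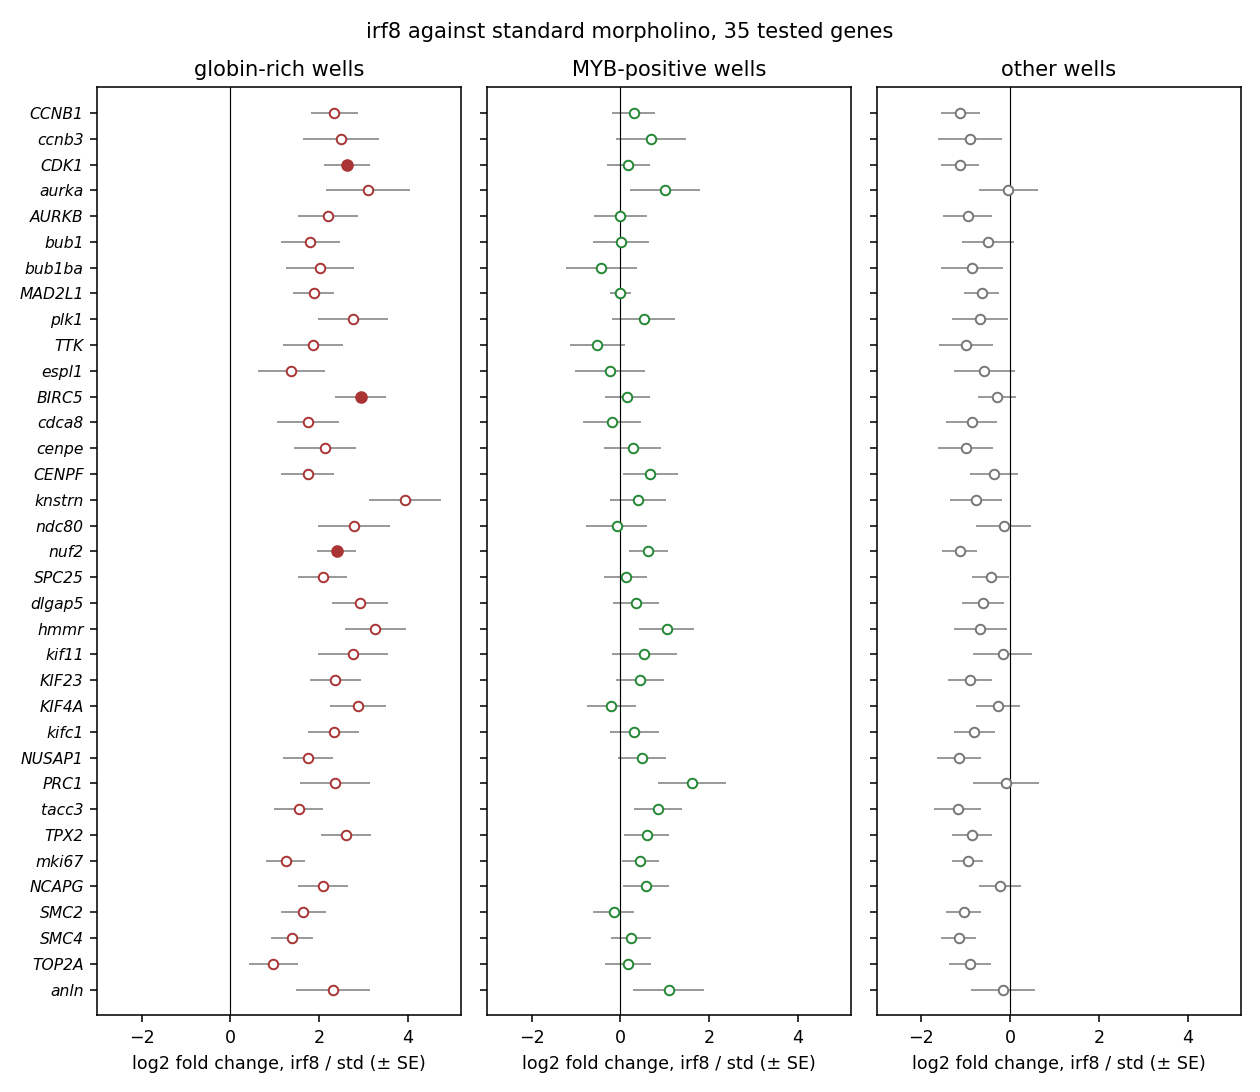
log2 fold change (irf8 over std, ± standard error) of 35 tested mitosis and G2 genes in globin-rich, MYB-positive and other wells; filled points passed an adjusted p of 0.05. The 35 values run from 0.96 to 3.92 in globin-rich wells, with nuf2, BIRC5 and CDK1 filled, from -0.52 to 1.62 in MYB-positive wells and from -1.18 to -0.04 in other wells.

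More irf8 than std wells of this kind held many of these UMIs. Of the 57 globin-rich wells with 5 or more UMIs after thinning, 53 were irf8 and 4 std. They made up 13 of 89, 24 of 110 and 16 of 114 irf8 globin-rich wells on plates 1, 2 and 4 (14.6, 21.8 and 14%) and 3 of 96, 0 of 66 and 1 of 93 std wells (3.12, 0 and 1.08%, where 0 of 66 allows up to 4.55%). Plate rows were assigned by counting wells along the rows in number order, an order that the labels do not give. On that assumption, the irf8 wells with 5 or more came from 7 of the 9 plate rows that held irf8 globin-rich wells on each of these plates. The threshold of 5 was chosen after seeing the data. Among irf8 wells, the 53 with 5 or more had a median globin share of 37.8%, against 50% in the 180 with none, a median of 8469 UMIs against 5405, and a median of 0.104% of UMIs on replication genes against 0.0206%. Their median erythroid marker share was 3.15%, against 3.09%. In std it was 1.15% in the 4 wells with 5 or more and 2.31% in the 202 with none.

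**Figure D4:**
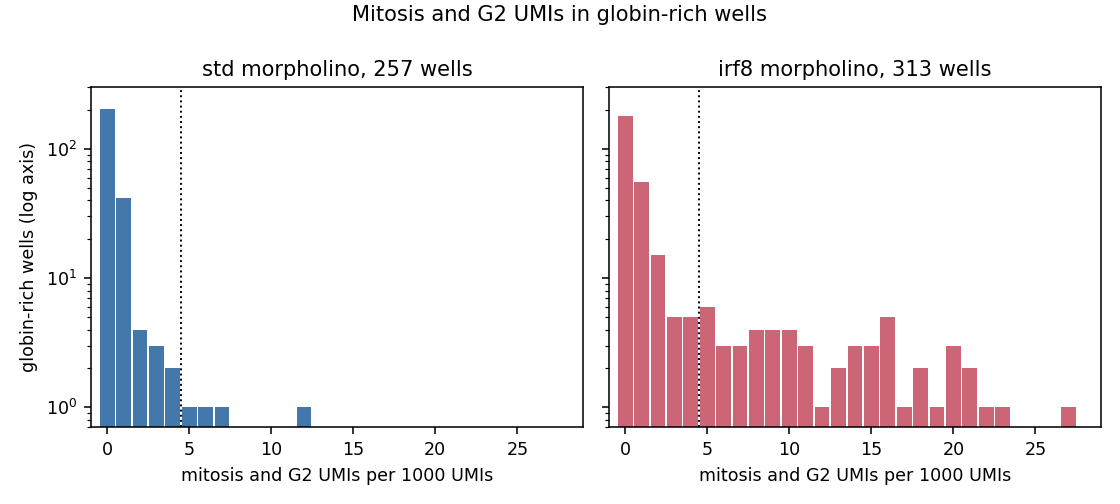
Number of globin-rich wells (log axis) by mitosis and G2 UMIs per well after thinning to 1000 UMIs, for 257 std and 313 irf8 wells; the dotted line marks 5 UMIs. Beyond the line lie 4 std and 53 irf8 wells.

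**Figure D5:**
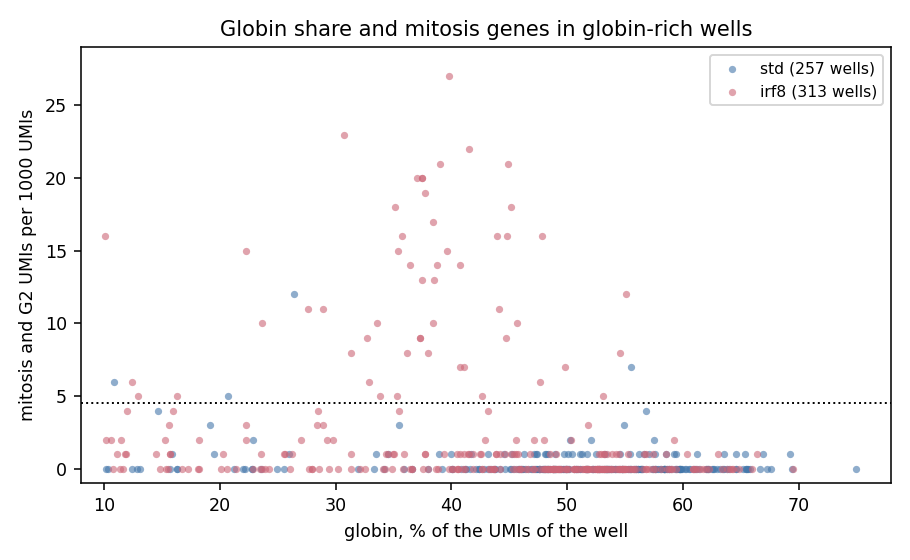
Mitosis and G2 UMIs per 1000 UMIs against the globin share of each globin-rich well (percent of UMIs), std in blue and irf8 in red; the dotted line marks 5 UMIs. The 57 wells above the line span 10.1 to 55.5% globin, with a median of 37.5%.

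Other features of the globin-rich wells moved with the morpholino. The median irf8 well held 6150 UMIs and 45.6% globin, the median std well 3903 UMIs and 51.8%. The 9 erythroid markers together held 2.42 to 2.98% of UMIs in irf8 and 1.79 to 2.26% in std, and replication genes 0.108% ± 0.00894 and 0.0455% ± 0.00956 (SD, n = 3 each). Epithelial markers (4 rows, none at 0) held less in irf8, 0.126 to 0.506%, than in std, 0.544 to 0.722%, with no overlap. Lymphoid markers (6 rows) held 0.0102 to 0.0126% in irf8, with RAG1 and il7r at 0, and 0.00465 to 0.00763% in std, with CCR9 at 0, again with no overlap. The 8 muscle markers held 0.115 to 0.423% in irf8 and 0.0566 to 0.291% in std, with none at 0 in either group, and overlapped, as did the remaining marker lists. Their part in the result was not tested, and position on the plate cannot be told apart from it. The counts of wells given above came from wells thinned to 1000 UMIs, globin included, and the part of depth before thinning was not tested. Of the other lists, 0 of 31 replication genes were called (edgeR, median 0.86, 27 positive). fbxo5 rose from 0, 8.2 and 0 CPM in std to 96.3, 125 and 71.2 in irf8 (edgeR adjusted p = 0.00974), and NCAPH, a condensin subunit like NCAPG, from 3.17, 0 and 3.22 to 46.1, 103 and 42.7 CPM (edgeR adjusted p = 0.00912). They were the only calls among 8 G2/M regulators and 11 other mitosis genes tested. The std values of both rest on 0 or 1 count per plate.

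In MYB-positive wells no member was called between morpholinos by edgeR or by DESeq2. An unadjusted p under 0.05 was found for 0 members by edgeR (781 of all 6903 genes) and 1 by DESeq2 (858 genes). No gene at all was called there by edgeR (0%). The genes took 0.395, 0.334 and 0.59% of UMIs in irf8 wells of plates 1, 2 and 4 and 0.185, 0.366 and 0.329% in std wells, overlapping groups with plate 2 in the opposite direction. The median log2 fold change was 0.31, with 26 of 35 positive. PRC1, which bundles the central spindle, had the smallest p, at 1.62 (standard error 0.77, edgeR adjusted p = 0.443), followed by hmmr (1.04, standard error 0.63, edgeR adjusted p = 0.558) and nuf2 (0.63, standard error 0.44, edgeR adjusted p = 0.623). PRC1 passed the low-count filter on irf8 sums alone, with at most 14.9 CPM in any std sum. hmmr also needed irf8 sums to pass it, with at most 17.6 CPM in std MYB-positive wells. The rank and direction of both therefore give no independent support. Here the sums held 5 to 22 wells each. Other features of these wells moved with the morpholino. The 8 muscle markers, none at 0, held 0.22 to 0.32% of UMIs in irf8 and 0.0316 to 0.16% in std, with no overlap. The other marker lists overlapped. The median MYB-positive well over all plates held 17062 UMIs in irf8 and 10912 in std. The part of these features in the values above was not tested.

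In other wells the genes were lower in irf8, with no call. The genes took 0.131, 0.164, 0.187, 0.108 and 0.0877% of UMIs in std and 0.0733, 0.123, 0.0982, 0.0516 and 0.0321% in irf8 wells of plates 1 to 5, lower in irf8 on 5 of 5 plates, although the groups overlapped. The irf8 sum of plate 5 held 8 wells and 20 UMIs of the genes, and a single well gave 53.8% of its UMIs. On plate 4 the largest irf8 well gave 26%. All 35 log2 fold changes were below 0, with a median of -0.81 beside -0.01 for all genes. The median was -0.41 from 20% globin, with 8 of 35 above 0, -0.32 with MYB read after thinning, and -0.18 with at least 2 UMIs of MYB, with 11 of 37 above 0. No member was called by edgeR or DESeq2 (0% of all genes by edgeR), and 8 had an unadjusted p under 0.05, as 614 of all 6903 genes had. SMC4 (-1.16, standard error 0.39, edgeR adjusted p = 0.415), nuf2 (-1.14, standard error 0.39, edgeR adjusted p = 0.422) and mki67 (-0.96, standard error 0.35, edgeR adjusted p = 0.434) had the smallest p. mki67 had 114, 144, 185, 62.6 and 93.9 CPM in std and 69.6, 86.2, 66.1, 47.5 and 33.5 in irf8, lower on 5 of 5 plates. In all, 7 of the 35 members were lower on 5 of 5 plates, beside 5.72% of all genes, CDK1 among them (-1.13, standard error 0.42, edgeR adjusted p = 0.444). The share of wells with at least 2 UMIs after thinning moved less, 28.1% ± 5.13 in std and 25.5% ± 5.9 in irf8 (SD, n = 5 each). In these wells the 8 muscle markers, with none at 0, held 0.173 to 4.96% of UMIs in irf8 and 0.104 to 2.58% in std, and wells led by muscle genes numbered 44 irf8 and 16 std. The neutrophil marker matched (1 row) had a median of 0.00377% in irf8 (0 to 0.115%) and 0.41% in std (0 to 0.675%), and the cartilage markers a median of 0.099% and 0.2%. Their part in the lower values was not tested. As the wells are a mix, fewer dividing cells and less of these transcripts per cell cannot be told apart in the sums.

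The difference between classes was tested as an interaction in the same fit. For MYB-positive against globin-rich wells, 0 of 35 members were called by edgeR or DESeq2 (0% of all genes by edgeR), and the median was -1.91. An unadjusted p under 0.05 was found for 19 members and for 533 of all 6903 genes. BIRC5 was at -2.77 (standard error 0.76, edgeR adjusted p = 0.459), KIF4A, a chromosome-bound kinesin, at -3.07 (standard error 0.86, edgeR adjusted p = 0.459) and CDK1 at -2.44 (standard error 0.71, edgeR adjusted p = 0.459). For other against globin-rich wells, a contrast added after seeing the data, 2 members were called, nuf2 (-3.53, standard error 0.59) and CDK1 (-3.75, standard error 0.67, each with an edgeR adjusted p of 0.0417), beside 0.0579% of all genes called lower and 0.0145% higher. CCNB1 followed at -3.46 (standard error 0.69, edgeR adjusted p = 0.0874). Both calls were lost without plate 1, 2, 3 or 4, without the block and without the deepest 2% of wells.

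Over all kept wells no member was called by edgeR. The genes took 0.221, 0.331, 0.12, 0.176 and 0.243% of UMIs in irf8 wells of plates 1 to 5 and 0.117, 0.162, 0.261, 0.148 and 0.101% in std wells, higher in irf8 on 4 of 5 plates. Plate 3, without globin-rich wells, went the other way, and there a single std well gave 47.1% of the UMIs of its sum. Of 36 members tested 0 passed (of 7141 genes, 0% were called higher and 0.014% lower), and DESeq2 called NCAPG. An unadjusted p under 0.05 was found for 3 members and for 671 of the 7141 genes. The median log2 fold change was 0.42 beside -0.03 for all genes, with 32 positive. Only NCAPG and knstrn were higher in irf8 on 5 of 5 plates, as 4.2% of all genes were. NCAPG had 30.4, 54.4, 21.6, 31.9 and 11.3 CPM in std and 56.2, 82.7, 28, 70.1 and 41.5 in irf8 (0.89, standard error 0.26, edgeR adjusted p = 0.35). knstrn had 9.21, 18.6, 5.76, 14.7 and 8.1 CPM in std and 16.9, 37.2, 17.1, 32.4 and 8.31 in irf8 (1.02, standard error 0.29, edgeR adjusted p = 0.331). The irf8 sum of plate 5 held 10 wells, and 8.31 CPM was the lowest value above 0 of any member in it. The direction of knstrn on plate 5 is therefore at the floor. hmmr was at 1.23 (standard error 0.51, edgeR adjusted p = 0.507), with 0 in irf8 of plate 5, and kif11 at 0.61 (standard error 0.48, edgeR adjusted p = 0.768). Without plate 3 the median rose to 0.86, with none called. There 20 of 37 members had an unadjusted p under 0.05, as 722 of all 8186 genes had.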

How the data were processed

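The authors counted UMIs per gene and well and deposited estimated counts, the number of transcripts after a correction for UMI collisions, without scaling for depth. The correction was read from the values: inverting it for a space of 4096 UMIs gave whole UMIs for 100% of values (tolerance 1e-06). The submitters' processing notes name BWA, Seurat and the build GRCz11 without their role. Spike-ins (6.673% of UMIs in kept wells) were left out. Of 23628 gene IDs 18186 have a symbol.

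Estimated counts of kept wells were summed per plate and class, morpholino or both, and rounded. They were tested with edgeR 4.0.16 (filterByExpr, TMM, quasi-likelihood) in R 4.3.3, with limma 3.58.1 loaded beside it. Plates were blocked and calls made at a Benjamini-Hochberg adjusted p of 0.05. The standard errors given were derived from the test, as the absolute log2 fold change over the square root of its F statistic. They were not estimated separately. Globin and MYB were left out of tests between classes. By the labels both morpholinos were sorted onto each plate against batch effects, which pairs them, and after removal of group means the std and irf8 sums of a plate correlated by 0.1997, 0.3341, 0.3502, 0.3319 and 0.1297 on plates 1 to 5. DESeq2 1.42.0, filters, thinning to 1000 UMIs (seed 11), class limits, the block, each plate and each morpholino alone were varied. Exact 95% intervals and limits of 3 counts cover counting error only. The edgeR tests were also run on simulated counts, whose outcome is not given here. These were drawn from a common mean profile with changes added to a single group. They lack the differences between plates and classes of the real data, so they do not settle how the tests behave here.

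Named with values are the 5 highest members per class, in each comparison those past the threshold (at most 10, by p) or the 3 with the smallest p, paralog pairs, NCAPG, knstrn and kif11. Exceptions, chosen after their values were seen, are the low rows, oip5 among them, and list genes. The members and lists were chosen with earlier results of these data known, so they give no independent support. No sequence was used here.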

Additional observations from a re-analysis of the deposited data

Results flagged for a closer look

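The difference between morpholinos in the share of UMIs on mitosis and G2 genes had opposite signs in 2 kinds of well. It was 0.248 percentage points higher in irf8 on average over 3 plates of globin-rich wells, each of which was higher, and -0.0598 points over 5 plates of other wells, each of which was lower. The irf8 sum of other wells on plate 5 held 8 wells and 20 of these UMIs. The difference of these shares was not tested. Gene by gene, the contrast of other against globin-rich wells, added after seeing the data, was called for nuf2 (log2 -3.53, edgeR adjusted p = 0.0417) and CDK1 (log2 -3.75, edgeR adjusted p = 0.0417).

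Wells with fewer than 1000 transcripts, which no comparison used, also held these transcripts. They took 0.133% of UMIs in 514 irf8 wells (124 UMIs in 92 wells) and 0.134% in 473 std wells (114 UMIs in 82 wells), above the 0.00321 and 0.00352% that a count of 0 would allow. No plate stood far from the other 4 in 16 groups looked at, where chance flags about 1 in 20.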

How the results depend on the processing

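Counts of members called moved with the processing in most comparisons, and the cause was not tested except where fewer genes or plates were left. For MYB-positive against globin-rich wells (1 of 37 members), the count was 0 by DESeq2, 0 without the plate as a block, 0 on thinned wells, 0 on sums per plate, class and morpholino, 2 with at least 10 counts in every sum, 2 without the deepest 2% of wells, 8 from 20% globin, 9 with MYB read after thinning, 9 of 22 in std and 0 in irf8 wells alone, and 0 to 3 on leaving out a plate. For other against globin-rich wells (28), it was 9 of 10 tested with at least 10 counts in every sum, 0 on thinned wells, where 1 member was tested, 17 without the deepest 2%, 12 from 5% globin, 6 with at least 2 UMIs of MYB, 5 with MYB read after thinning, 7 on sums per plate, class and morpholino, 0 of 22 in std and 24 in irf8 wells alone, and 1 to 28 on leaving out a plate. For MYB-positive against other wells (13), it was 25 of 43 without a filter, 8 of 10 with at least 10 counts in every sum, 22 without the block, 0 on thinned wells, 22 from 20% globin, 3 with at least 2 UMIs of MYB, 0 with MYB read after thinning, 0 in std and 0 in irf8 wells alone, and 0 to 13 on leaving out a plate. Between morpholinos over all kept wells (0), DESeq2 called 1, NCAPG, and thinned wells gave 1 of 2 tested, kif11; leaving out any plate gave 0. In globin-rich wells (3), the count was 14 by DESeq2, 16 of 43 without a filter, 9 with globin left out of the library size, 1 of 1 on thinned wells, 5 from 500 transcripts, 6 without the deepest 2%, 0 from 5% and 19 from 20% globin, 1 with MYB read after thinning, 2 without the block, and 0 to 8 on leaving out a plate. With at least 10 counts in every sum no member was left there. For the interaction of other against globin-rich wells (2), it was 11 by DESeq2, 15 without a filter, 0 without the block, 0 on thinned wells, 0 from 500 and 4 from 2000 transcripts, 0 without the deepest 2%, 0 from 5% and 4 from 20% globin, 0 with at least 2 UMIs of MYB, 0 with MYB read after thinning, and 0 to 2 on leaving out a plate. The block changed no other count by over 1.5 times. In MYB-positive wells, in other wells and in the interaction of MYB-positive against globin-rich wells every alternative run gave 0.

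The member share was 0.289% in MYB-positive wells without the deepest 2% (0.342% with them) and 0.364% in globin-rich wells with globin left out of the total (0.222% with it). Wells with at least 2 member UMIs made up 22.7% of globin-rich wells with globin left out before thinning (16.1% with it). At a limit of 1 UMI the shares were 33% of globin-rich, 55.6% of MYB-positive and 45.7% of other wells, at 3 UMIs 12.8% of globin-rich and 14.9% of other wells, and at 5 UMIs, a limit added after seeing the data, 10.2%, 27.3% and 7.98%. The mean of globin-rich wells was below that of other wells at 1, 2 and 3 UMIs and above it at 5, at 3 and 5 by less than the SD between plates.

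For 41 pairs of a named gene and a comparison there were 721 values under alternatives, of which 554 kept direction and side of the threshold, 150 lost the call, 9 gained one and 8 changed sign. With MYB read after thinning, mki67 in MYB-positive against globin-rich wells (log2 -0.03), and NUSAP1 (-0.50) and NCAPG (-0.08) in MYB-positive against other wells changed sign. In std wells alone, nuf2 (0.38) and CENPF (0.06) in MYB-positive against globin-rich wells did, and NCAPG (0.10), dlgap5 (1.02) and cenpe (0.40) in other against globin-rich wells. Both alternatives were added after seeing the data. Depth limits the low members: 6 of 43 were not tested between classes, and thinned wells left 1 or 2 members to test.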
